A study of Mus musculus with 6 samples.

Results

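The cells described here are endothelial cells of injured and uninjured mouse quadriceps that carried transcripts of Aplnr, Prnd, Col15a1 and Fam167b. A barcode with at least 500 gene UMIs (unique transcript counts) was taken as an endothelial cell where Pecam1, Cdh5, Egfl7 and Cldn5 summed to at least 2 UMIs and the macrophage genes C1qa, C1qb and Tyrobp to at most 2. Members were then selected on their own UMI counts: a cell entered the sprouting gate where Aplnr, Prnd, Col15a1 and Fam167b summed to at least 2 UMIs, the arterial genes Gja5, Hey1, Sema3g and Stmn2 to at most 1 and the venous genes Selp, Ackr1, Vwf and Lrg1 to at most 2. The gate held 507 of 8258 barcodes and of 2587 endothelial cells: 208 of 671 endothelial cells in the critical library, 164 of 585 in the subcritical library and 135 of 1331 in the uninjured library.

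The study compared wild-type male C57BL/6 mice aged 2 to 3 months, with 4 animals in each group. Critical animals had a 3 mm volumetric muscle loss defect of the left quadriceps and were taken at day 7. Subcritical animals had a 2 mm defect and the same interval, and uninjured animals were naive controls labelled with the same day. Transcripts and surface proteins were read in the same cells (CITE-seq). Each animal's cells received a hashtag antibody, and the cells of a group were then mixed, stained together and sequenced as a single library. Differences between groups and differences between libraries or stainings cannot be told apart. Enzyme digestion and a strainer preceded the assay, so the cells are those that survived dissociation.

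New capillaries grow from existing ones by sprouting. A tip cell guided by VEGF leads each sprout, stalk cells behind it divide and lay down basement membrane, and Notch signalling keeps neighbouring cells from becoming tips. Aplnr encodes the receptor for apelin, a peptide made by growing endothelium. Col15a1 encodes a collagen of the basement membrane zone, and Prnd encodes doppel, a relative of the prion protein found on young vessels. The function of Fam167b is not stated here. At rest, the capillaries of skeletal muscle are specialised for taking up fatty acids.

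The start regions of Prnd, Col15a1 and Fam167b are shown because transcripts of these genes took part in choosing the cells; Aplnr is named only. RefSeq entries on the GRCm38.p6 build were matched by symbol for Prnd (chr2:131950611-131950910, plus strand), Col15a1 (chr4:47207762-47208061, plus strand) and Fam167b (chr4:129578531-129578830, minus strand), each from 250 bases before to 50 bases after the start of the gene. The UMI counts were made on the GRCm39 build. Capitals mark the letters CNGGAA on either strand, a form of the site bound by ETS factors, a family with members that act throughout the endothelium.
Prnd: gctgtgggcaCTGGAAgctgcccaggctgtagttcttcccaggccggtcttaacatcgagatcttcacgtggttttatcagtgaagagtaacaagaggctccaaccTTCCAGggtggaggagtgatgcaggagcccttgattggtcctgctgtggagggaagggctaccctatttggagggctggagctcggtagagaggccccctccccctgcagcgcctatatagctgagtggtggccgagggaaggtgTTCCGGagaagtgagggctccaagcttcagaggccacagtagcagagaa
Col15a1: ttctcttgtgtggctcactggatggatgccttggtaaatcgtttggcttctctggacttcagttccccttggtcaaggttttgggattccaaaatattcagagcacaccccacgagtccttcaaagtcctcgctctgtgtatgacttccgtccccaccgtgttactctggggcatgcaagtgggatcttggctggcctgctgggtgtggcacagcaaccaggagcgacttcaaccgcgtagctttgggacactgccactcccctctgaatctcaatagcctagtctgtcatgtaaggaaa
Fam167b: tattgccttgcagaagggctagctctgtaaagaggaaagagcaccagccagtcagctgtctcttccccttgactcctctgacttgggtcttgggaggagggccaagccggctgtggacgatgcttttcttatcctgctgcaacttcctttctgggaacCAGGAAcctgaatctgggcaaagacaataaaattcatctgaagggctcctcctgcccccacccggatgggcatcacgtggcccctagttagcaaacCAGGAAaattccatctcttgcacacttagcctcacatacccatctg
The letters occurred 3 times in the Prnd window and 2 times in the Fam167b window, and were not found in the Col15a1 window. They were found in 61.7% of all 32851 windows of the same 300 bases, so a match is common.

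The gate rule fixed the sum of the 4 genes but not their mix, and the mix differed between libraries. Levels are given as CPM, the UMIs of a gene scaled to 1000000 gene UMIs over the cells of a library, and as a description. Aplnr stood at 811 CPM in critical, 784 CPM in subcritical and 698 CPM in uninjured gate cells. Col15a1 stood at 908, 989 and 288 CPM in the same order. Prnd stood at 350 CPM in critical, 283 CPM in subcritical and 115 CPM in uninjured gate cells. Fam167b stood at 230, 242 and 23.5 CPM. Aplnr was thus close to level across the gates, which select on it, while the other gate genes were lowest in the uninjured gate. Over all endothelial cells, gate and other, Aplnr stood at 486 CPM in critical, 432 CPM in subcritical and 177 CPM in uninjured muscle.

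Gate cells that passed on Aplnr UMIs alone numbered 19 of 208 in critical muscle (9.13%), 20 of 164 in subcritical muscle (12.2%) and 67 of 135 in uninjured muscle (49.6%). Cells with UMIs of all 4 genes numbered 18 in the critical library, 12 in the subcritical library and 0 in the uninjured library, where a count of 0 allows a share of up to 2.22%. Just inside the limit, 65 critical, 65 subcritical and 84 uninjured cells had exactly 2 UMIs of the gate genes. Just outside it, 93 critical, 98 subcritical and 199 uninjured cells met the other limits with 1 UMI. These cells had median depths of 1045, 1016 and 1958 UMIs inside and 916, 923 and 1673 UMIs outside.

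**Figure D1:**
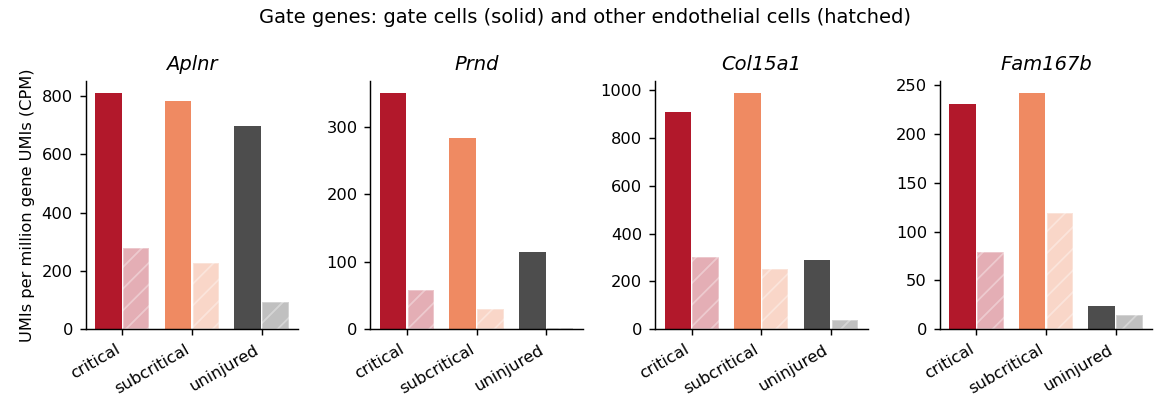
Level of the 4 gate genes in CPM (UMIs scaled to 1000000 gene UMIs, summed over cells; y axes differ) in gate cells (solid bars) and other endothelial cells (hatched bars) of the critical, subcritical and uninjured libraries. Aplnr is near level in the gate, at 811, 784 and 698 CPM, while Col15a1, Prnd and Fam167b are lowest in uninjured gate cells; the bars have no replicate error because each is 1 library.

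Aplnr, Prnd and Fam167b UMIs were each found in at most 1.08% of cells rich in macrophage or fibroblast transcripts in any library. Aplnr was found in 0.382% of critical and 0.241% of subcritical cells rich in macrophage transcripts, with median depths of 1532 and 1236 UMIs, and in 40.5% and 34.7% of the endothelial cells of those libraries at 1211 and 1046 UMIs. Col15a1 was different, with a UMI in 21.7% of critical, 19.7% of subcritical and 47.6% of uninjured cells rich in fibroblast transcripts. Gate cells were deeper than the other endothelial cells in every library, with medians of 1658 against 1072 UMIs in critical, 1434 against 963 UMIs in subcritical and 2320 against 1603 UMIs in uninjured muscle. Over 2 fibroblast UMIs (Col1a1, Col3a1 and Dcn) were found in 17 critical, 8 subcritical and 4 uninjured gate cells. Libraries shared 10 to 16 cell barcodes pairwise, and 1 barcode was a gate cell in both the critical and the uninjured library.

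A larger share of the recovered endothelial cells was in the gate after either injury. In the critical library 31.0% of endothelial cells were in the gate (exact binomial 95% interval 27.5 to 34.7%), with 28.03% in the subcritical (24.4 to 31.9%) and 10.1% in the uninjured library (8.57 to 11.9%). The intervals cover counting error only. With every cell thinned to 1000 UMIs and shallower cells left out, the shares were 32.3%, 29.4% and 4.80%. As a share of all barcodes, gate cells made up 6.58% in critical, 5.65% in subcritical and 6.15% in uninjured muscle. Endothelial cells made up less of the injured libraries, so the higher share lay within the endothelium and not within the muscle as sampled.

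Hashtags placed a minority of injured cells in single animals: 30.8% of critical, 39.6% of subcritical and 65.2% of uninjured gate cells. In critical animals 8 of 13, 18 of 83, 13 of 39 and 25 of 84 tagged endothelial cells were in the gate, or 61.5%, 21.7%, 33.3% and 29.8%. In subcritical animals the shares were 33.3%, 32.1%, 33.3% and 29.8%, and in uninjured animals 6.67%, 10.1%, 15.4% and 18.3%. Every injured animal lay above every uninjured one, while the critical and subcritical animals overlapped.

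The mean share was 36.6% ± 17.3 in critical, 32.1% ± 1.68 in subcritical and 12.6% ± 5.24 in uninjured animals (SD, n = 4 each). Critical and subcritical animals each differed from uninjured animals with an exact two-sided permutation p of 0.0286, the smallest that 4 against 4 animals allow, or 0.0429 adjusted over the 3 comparisons. Critical and subcritical animals differed by 4.45 percentage points, with an exact permutation p of 0.914. Critical animal 1 had 13 endothelial cells, and without it the critical mean was 28.3% and the difference from subcritical animals was -3.87 points.

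Over animals, the difference between injured and uninjured muscle passed the test with the full gate but not with either gate without Col15a1. With the gate set on at least 1 UMI of Aplnr, Prnd or Fam167b, the shares were 41.8% ± 14.1, 43.2% ± 15.7 and 29.9% ± 6.14 in critical, subcritical and uninjured animals (SD, n = 4 each), the groups overlapped, and the adjusted exact permutation p was 0.257 for both injuries against uninjured. With at least 2 UMIs of those 3 genes, a setting added after the data were seen, the library shares were 21.2%, 17.1% and 7.59%. Over animals they were 23.2% ± 15.4, 22.2% ± 8.84 and 9.98% ± 4.24 (SD, n = 4 each), the groups overlapped, and the adjusted exact permutation p was 0.129 for both injuries against uninjured. With the full gate and any single uninjured animal left out, every injured animal still lay above every uninjured one. The exact permutation p was then 0.0571 for critical and 0.0286, the smallest that 4 against 3 animals allow, for subcritical, and 0.0857 adjusted for both.

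**Figure D2:**
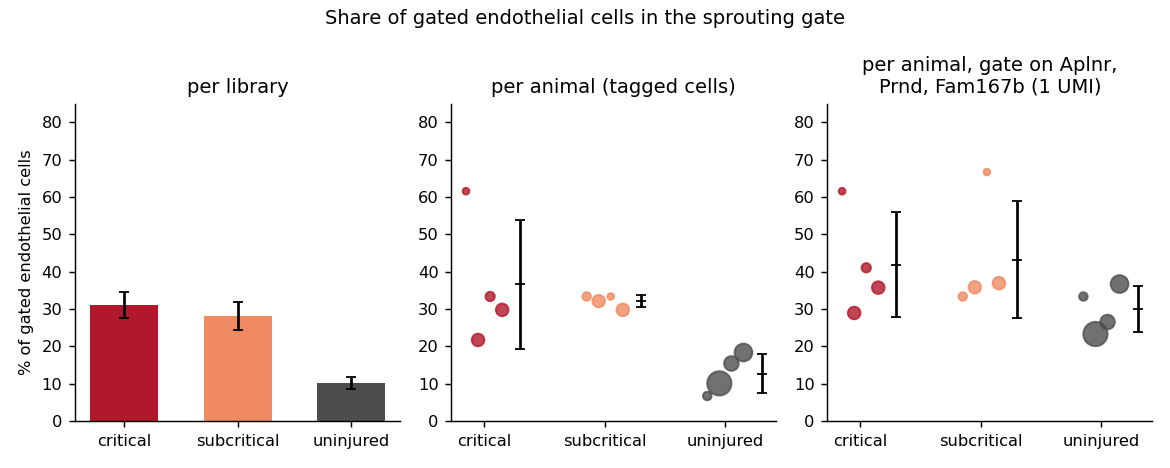
Share of gated endothelial cells that were in the sprouting gate, in percent: per library with the exact 95% binomial interval (left), per animal from hashtagged cells (middle), and per animal with the gate set on Aplnr, Prnd and Fam167b alone (right). Points are animals, larger where more endothelial cells were tagged, and bars beside them are mean and SD (n = 4); the uninjured animals lie apart from the injured ones at 6.67% to 18.3% in the middle panel and overlap them in the right panel.

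Within the gate, basement membrane genes and genes such as Plvap, Mest and Vim were higher in injured animals, and genes of resting muscle capillaries were lower. Over whole libraries, the same directions were found in the other endothelial cells. Counts were summed over the gate cells of each animal with at least 10 of them, which left critical animals 2, 3 and 4, subcritical animals 1, 2 and 4 and uninjured animals 2, 3 and 4, with 10 to 35 cells and 19632 to 113929 UMIs each. The edgeR quasi-likelihood test on 846 genes, at a Benjamini-Hochberg adjusted p under 0.05, called 134 genes (15.8%) between critical and uninjured animals, of which 58 rose (6.86%) and 76 fell (8.98%). Between subcritical and uninjured animals it called 153 genes (18.1%), of which 69 rose (8.16%) and 84 fell (9.93%). Both comparisons share the uninjured animals. DESeq2 called 58 and 95 genes. A gene could pass the count filter through the group where it is high, and the lists were chosen with earlier results of these data known. Counts of list members called over animals are therefore given as a description and are not read as an enrichment.

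Plvap, which encodes the protein of the diaphragms that span endothelial fenestrae and caveolae, rose most clearly among genes of the tip cell list. It stood at 1107, 375 and 523 CPM in critical animals and 617, 794 and 732 CPM in subcritical animals, against 92.8, 90.9 and 52.0 CPM in uninjured animals. No injured animal was near the uninjured ones. The log2 fold change was 3.13 ± 0.38 (SE, edgeR adjusted p 6.28e-10) for critical and 3.25 ± 0.37 (adjusted p 1.29e-10) for subcritical over uninjured animals, with n = 3 each.

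The uninjured value of Plvap differed between cells with and without a hashtag. The 88 tagged uninjured gate cells stood at 73.8 CPM and the 47 untagged ones at 833 CPM, where 5 cells held 89.4% of the UMIs and a single cell had 68. In critical gate cells Plvap stood at 641 CPM in tagged and 1050 CPM in untagged cells. Over whole libraries the log2 difference between critical and uninjured gate cells was 1.50 (counting interval 1.22 to 1.82), below the value over animals.

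Mest, an imprinted gene active in growing mesodermal tissue, also rose. It stood at 511, 512 and 282 CPM in critical animals and 411, 560 and 732 CPM in subcritical animals, against 58.0, 22.7 and 60.6 CPM in uninjured animals. The groups did not overlap. The log2 fold changes over uninjured animals were 2.94 ± 0.44 (edgeR adjusted p 3.87e-07) in critical and 3.45 ± 0.42 (adjusted p 3.89e-10) in subcritical animals. Vim, the intermediate filament of mesenchymal and endothelial cells, stood at 5904, 6279 and 7287 CPM in critical and 8221, 7191 and 8697 CPM in subcritical animals, against 1172, 2068 and 3214 CPM in uninjured animals. Its log2 fold change was 1.58 ± 0.26 in critical and 1.88 ± 0.26 in subcritical animals, with edgeR adjusted p of 0.000447 and 4.41e-05.

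Genes of the basement membrane rose in both comparisons. Of 9 members tested, 7 rose and 0 fell between critical and uninjured animals, with a median log2 fold change of 0.93 against -0.03 over all genes tested. The 7 were Col4a1 and Col4a2, the chains of the main collagen IV network, Lamc1 and Lama4, laminin chains, Nid1, which links laminin to collagen IV, Sparc, a collagen-binding matricellular protein, and Serpinh1, the collagen chaperone. Between subcritical and uninjured animals 4 of 9 rose, Col4a1, Col4a2, Sparc and Serpinh1, with a median of 0.52 against -0.02 over all genes. The share of all 846 genes that rose was 6.86% in critical and 8.16% in subcritical animals. Of the 18 members of the list, those tested could pass the count filter through the injured animals, which favours this direction.

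Col4a1 stood at 2640, 2969 and 4147 CPM in critical and 5138, 4179 and 3660 CPM in subcritical animals, against 1369, 2068 and 1776 CPM in uninjured animals. All injured animals were above the uninjured ones. Its log2 fold change was 0.94 ± 0.19 (edgeR adjusted p 0.000211) in critical and 1.31 ± 0.19 (adjusted p 1.26e-07) in subcritical animals. Nid1 rose in critical animals (log2 1.24 ± 0.36, edgeR adjusted p 0.0117) and had a log2 difference of -0.29 ± 0.47 in subcritical animals, where animal 1 had 0 CPM. The difference between critical and subcritical animals for Nid1 did not pass the test (adjusted p 0.0935).

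Of 15 tested genes of the actin and migration list, 4 rose and 0 fell in critical animals: Vim, S100a6, S100a11 and Tmsb10. In subcritical animals 5 rose, Pfn1 in addition to these, and Tmsb4x fell. Of all 846 genes, 6.86% rose and 8.98% fell in critical animals, and 8.16% rose and 9.93% fell in subcritical animals. The list had median log2 differences of 0.32 and 0.33, against -0.03 and -0.02 over all genes. Tmsb10, a small actin-monomer binding protein, stood at 3889, 3685 and 3362 CPM in critical and 4367, 3736 and 5403 CPM in subcritical animals, against 1520, 1772 and 2278 CPM in uninjured animals. S100a6, a calcium-binding protein, had log2 fold changes of 1.23 ± 0.20 in critical and 1.22 ± 0.20 in subcritical animals over uninjured animals. Tmsb4x, a relative of Tmsb10 in the thymosin family, had log2 differences of -0.39 ± 0.16 in critical and -0.50 ± 0.17 in subcritical animals. Of these, the value in subcritical animals passed the test.

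Of the 20 genes of the resting muscle capillary list 15 were tested. In each comparison with uninjured animals 11 fell and 0 rose, with median log2 fold changes of -0.80 in critical and -0.95 in subcritical animals. Members could pass the count filter through the uninjured animals, which favours this direction. The genes that fell were the same in both comparisons. They were Fabp4, Cd36, Gpihbp1 and Lpl, which carry, take up or release fatty acids, Aqp1 and Aqp7, channels for water and glycerol, Timp4, a metalloproteinase inhibitor, Cav1, the main caveolin, the transcription factor Tcf15, Cd300lg and Tspan13. The share of all 846 genes that fell was 8.98% in critical and 9.93% in subcritical animals. Fabp4 stood at 6075, 5733 and 5676 CPM in critical and 6114, 4086 and 5403 CPM in subcritical animals, against 30135, 24109 and 22676 CPM in uninjured animals. It fell by 2.14 ± 0.17 in critical and by 2.32 ± 0.18 in subcritical animals on the log2 scale (edgeR adjusted p 2.2e-17 and 7.14e-19).

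Timp4 stood at 170, 239 and 403 CPM in critical and 411, 93.4 and 215 CPM in subcritical animals, against 1648, 2136 and 1845 CPM in uninjured animals. The groups lay far apart for both genes. Aqp1 stood at 1391, 1570 and 1329 CPM in critical and 1285, 1985 and 840 CPM in subcritical animals, against 6777, 7135 and 5171 CPM in uninjured animals. Cd36, the fatty-acid transporter, fell by 0.93 ± 0.21 in critical and by 1.76 ± 0.24 in subcritical animals on the log2 scale. The difference between critical and subcritical animals for Cd36 had an edgeR adjusted p of 0.165.

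The resting genes were also lower in the other endothelial cells of the injured libraries. Over whole libraries the list had a median log2 difference of -1.17 between critical and uninjured gate cells and of -1.04 between the other endothelial cells of those libraries, against -0.06 over all genes of the gate. For subcritical over uninjured the medians were -1.01 and -1.02. The basement membrane list was likewise higher in both kinds of cell. Its medians in gate and other cells were 0.95 and 0.90 for critical and 0.72 and 0.90 for subcritical over uninjured. Mest differed by 3.54 in gate and 3.89 in other cells for critical, and by 3.16 and 3.05 for subcritical over uninjured. Vim differed by 1.64 and 1.45 for subcritical over uninjured.

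Klf2 and Klf4, transcription factors that flow induces in endothelium, fell in both comparisons, as 2 of 4 tested members of the flow-responsive list. The share of all 846 genes that fell was 8.98% in critical and 9.93% in subcritical animals. Klf2 stood at 369, 546 and 805 CPM in critical animals, 308, 840 and 904 CPM in subcritical animals and 1590, 1954 and 1438 CPM in uninjured animals. Its log2 fold change was -1.46 ± 0.25 in critical and -1.13 ± 0.25 in subcritical animals (edgeR adjusted p 2.76e-05 and 0.000504). Klf2 was also lower after injury in the other tagged endothelial cells, at 651 CPM in critical, 903 CPM in subcritical and 1692 CPM in uninjured muscle.

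Among VEGF, angiopoietin and apelin genes, 7 were tested. Flt1, the VEGF receptor that also acts as a decoy, stood at 1079, 546 and 1228 CPM in critical and 411, 677 and 538 CPM in subcritical animals, against 1624, 1500 and 1516 CPM in uninjured animals. It fell by 0.66 ± 0.22 (edgeR adjusted p 0.0307) in critical and by 1.45 ± 0.24 (adjusted p 2.98e-06) in subcritical animals on the log2 scale. Flt1 was also lower after injury in the other tagged endothelial cells, at 975, 1032 and 1743 CPM in critical, subcritical and uninjured muscle. Nrp1, the VEGF co-receptor, fell in subcritical animals (log2 -0.87 ± 0.27, adjusted p 0.0173). Kdr, the main VEGF signalling receptor, had log2 differences of -0.15 ± 0.25 in critical and -0.37 ± 0.26 in subcritical animals, neither past the test.

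**Figure D3:**
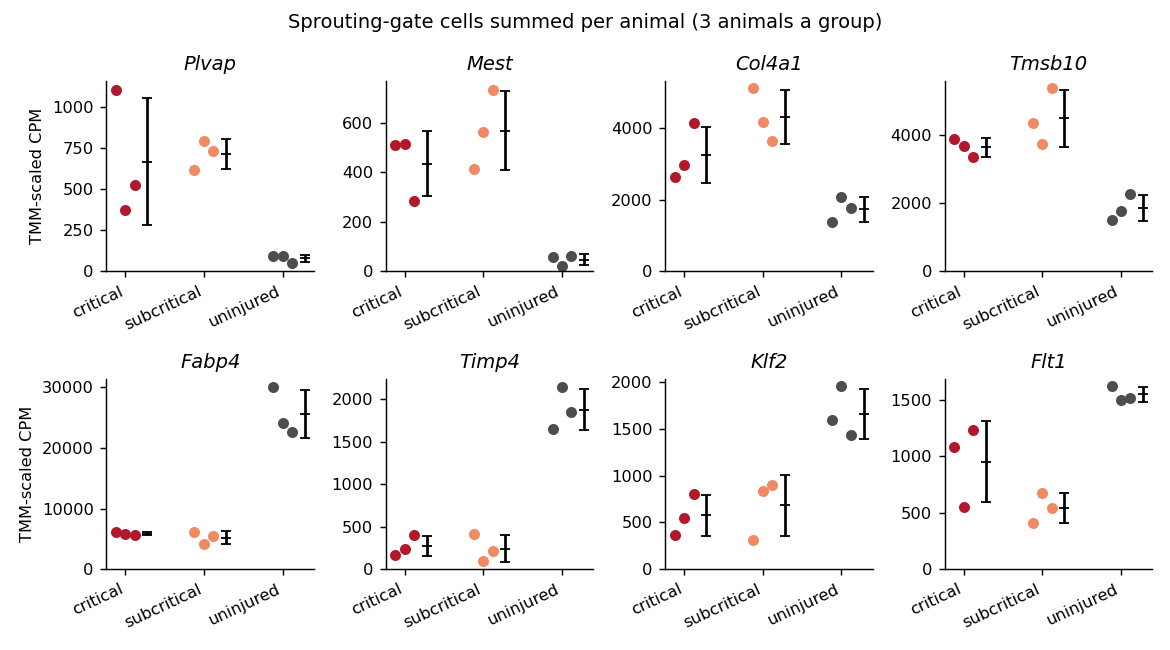
TMM-scaled CPM of 8 genes in sprouting-gate cells summed per animal (points, 3 animals a group), with mean and SD beside them; y axes start at 0 and differ. Plvap, Mest, Col4a1 and Tmsb10 are higher in every critical and subcritical animal than in any uninjured animal, and Fabp4, Timp4, Klf2 and Flt1 are lower.

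Smaller groups of genes were also called. The chemokine gene Cxcl12 and the NF-kB inhibitor gene Nfkbia, 2 of 3 tested members of the leukocyte recruitment list, fell in both comparisons. The share of all 846 genes that fell was 8.98% in critical and 9.93% in subcritical animals. Isg15, an interferon-induced ubiquitin-like protein, rose in both (log2 1.12 ± 0.40 in critical and 1.23 ± 0.41 in subcritical animals), and Ifitm2 fell in both. Id1 and Id3, targets of BMP signalling, fell in critical animals, by 1.05 ± 0.28 and 0.98 ± 0.20 on the log2 scale, and Eng, a BMP co-receptor of endothelium, fell in subcritical animals by 0.79 ± 0.26. Jam2, a junction protein, fell in both, by 1.16 ± 0.26 and 1.53 ± 0.28. Of 9 immediate early and stress genes tested, 0 were called in either comparison. No Notch gene of 13 had enough counts to be tested over animals.

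Some calls were of genes that other cell types express. Lyz2, a lysozyme of myeloid cells, stood at 255, 239 and 342 CPM in critical animals and 51.4, 93.4 and 194 CPM in subcritical animals, against 23.2, 22.7 and 0 CPM in uninjured animals, and was called in both comparisons. Macrophage markers summed to 505 CPM in critical, 351 CPM in subcritical and 18.3 CPM in uninjured gate cells. In critical gate cells C1qa, C1qb and Tyrobp, which the rule limits to 2 UMIs a cell, stood at 26.6, 59.8 and 42.1 CPM. Their part in other results was not tested.

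Between critical and subcritical animals 5 genes (0.591%) were called, all lower in critical animals and all ribosomal: Rps29, Rps28, Rpl37, Rpl41 and Rpl37a. DESeq2 also called 5, and 88 genes had an unadjusted p under 0.05 in edgeR. Rps29 stood at 1164, 1126 and 1228 CPM in critical animals, 3648, 2428 and 3294 CPM in subcritical animals and 2982, 2977 and 2815 CPM in uninjured animals. The critical animals were lower than both other groups. It fell by 1.38 ± 0.21 against subcritical animals (edgeR adjusted p 2.24e-06) and by 1.31 ± 0.20 against uninjured animals on the log2 scale. Of the 79 ribosomal protein genes tested, 19 were called between critical and uninjured animals, 6 of them lower, and 39 between subcritical and uninjured animals, 4 of them lower. Of all 846 genes, 15.8% and 18.1% were called in those comparisons.

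The 5 tested mitochondrially encoded genes were all called between critical and uninjured animals, and 0 were called between subcritical and uninjured animals. mt-Co1 stood at 965, 1228 and 886 CPM in critical animals, 257, 677 and 560 CPM in subcritical animals and 267, 295 and 372 CPM in uninjured animals. Mitochondrial UMIs were 0.375% of tagged critical, 0.201% of tagged subcritical and 0.147% of tagged uninjured gate cells, and 0.399% of the other tagged critical endothelial cells. Library and group cannot be told apart for these genes.

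Whether the gate cells responded to injury differently from the other endothelial cells of the same animals was tested for 1594 genes with an interaction term in edgeR, a test added after the data were seen. It called 2 genes (0.125%) for critical over uninjured and 0 for subcritical over uninjured, where 86 genes had an unadjusted p under 0.05 and the lowest adjusted p was 0.124. Plvap averaged 663 ± 369 CPM in critical gate cells and 77.5 ± 21.5 CPM in uninjured gate cells, and 755 ± 98.2 CPM in other critical endothelial cells and 344 ± 113 CPM in other uninjured endothelial cells (SD, n = 3 each). Its response was larger in the gate by 1.86 ± 0.40 on the log2 scale (edgeR adjusted p 0.0243), and by 1.68 ± 0.40 for subcritical animals (adjusted p 0.124). The critical call was lost, at edgeR adjusted p 0.480, 0.319, 0.198 and 0.0993, without critical animal 2, uninjured animal 2, uninjured animal 3 or uninjured animal 4, with differences of 1.44 to 2.06 over all animals left out in turn, fits also added after the data were seen. In untagged cells, which this test does not use, critical and uninjured gate cells stood at 1050 and 833 CPM, and critical and uninjured other cells at 1631 and 881 CPM, a smaller difference in the gate. Over whole libraries the log2 difference was 1.50 in the gate and 1.11 in other cells for critical over uninjured, and 1.36 and 1.05 for subcritical over uninjured.

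Cyp26b1, which encodes an enzyme that clears retinoic acid, was the other gene. Its UMIs in gate cells numbered 0, 0 and 0 in critical animals, against 66, 1 and 6 in uninjured animals. In untagged gate cells, which this test does not use, it stood at 29.1 CPM in critical and 24.0 CPM in uninjured muscle. Those levels rest on 9 UMIs in 6 cells and 3 UMIs in 3 cells. The whole critical gate held 10 Cyp26b1 UMIs and the whole uninjured gate 79. Among the uninjured animals tested, animal 2 held most of the gate UMIs. Its other endothelial cells held 381 Cyp26b1 UMIs, against 6 and 8 in animals 3 and 4. The call was lost without critical animal 2 or critical animal 4 (edgeR adjusted p 0.480 and 0.0864), and without uninjured animal 2 the gene was too low to be tested. It was kept without uninjured animal 3 or uninjured animal 4 (edgeR adjusted p 0.0359 and 0.0301).

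The label sprouting was carried only in part by tip cell transcripts. Apln, the ligand of Aplnr and a tip cell gene, had a UMI in 35 of 208 critical (16.8%), 26 of 164 subcritical (15.9%) and 8 of 135 uninjured gate cells (5.93%). Its level was 199, 181 and 60.1 CPM in the gate and 38.4, 37.6 and 13.1 CPM in the other endothelial cells. Nid2, a nidogen of growing vessels, stood at 117 CPM in critical, 184 CPM in subcritical and 52.3 CPM in uninjured gate cells, against 36.9, 67.3 and 19.7 CPM in the other endothelial cells. Both genes were higher inside the gate than outside it in each library.

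Other tip cell genes had no shared direction in the gate, and some were rare. Esm1, the defining secreted proteoglycan of tip cells, had a UMI in 3 critical (1.44%), 2 subcritical (1.22%) and 3 uninjured (2.22%) gate cells, against 0.216%, 0.238% and 0.920% of the other endothelial cells. Pgf, a ligand of the VEGF family, had a UMI in 4.81%, 4.88% and 3.70% of gate cells against 1.30%, 1.90% and 0.251% of the others. Angpt2, a ligand that destabilises vessels, stood at 33.2, 37.5 and 28.8 CPM in the gate against 96.6, 49.5 and 30.7 CPM outside it. Dll4, the Notch ligand of tip cells, stood at 122, 95.5 and 139 CPM in the gate against 141, 162 and 237 CPM outside it. Over the 20 genes of the tip cell list, the median log2 difference between gate and other endothelial cells was 0.03 in critical, 0.24 in subcritical and -0.34 in uninjured muscle for the 13, 11 and 8 members measured.

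Between injured and uninjured gate cells, 6 measured tip cell genes were at least 2-fold higher and 0 at least 2-fold lower, of 12 measured for critical and 11 for subcritical over uninjured. Of all genes, 5.04% of 3435 were that much higher in critical and 4.13% of 3393 in subcritical gate cells. The limit for a measured gene was set on its mean level over both libraries of a comparison. Tip cell genes low in uninjured cells could pass it through the injured library, which favours higher values. The counts of 6 and 0 are therefore not read as an enrichment of the list. Apln differed by log2 1.65 (counting interval 1.06 to 2.46) between the critical and uninjured libraries, Mcam, an adhesion molecule of vessel walls, by 1.43 (0.88 to 2.14) and the netrin receptor gene Unc5b by 1.74 (0.74 to 3.59). These differences have no replicate check. In uninjured muscle Apln stood at 7.77 CPM in tagged and 168 CPM in untagged gate cells.

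Transcripts of dividing cells were found in more gate cells of the injured libraries. At least 1 UMI of Mki67 or Top2a, genes of the S to M phases, was found in 19 of 208 critical gate cells (9.13%, exact interval 5.59 to 13.9%), 28 of 164 subcritical gate cells (17.1%, 11.7 to 23.7%) and 2 of 135 uninjured gate cells (1.48%, 0.180 to 5.25%). In the other endothelial cells the shares were 3.67%, 4.51% and 1.25%. Thinned to 1000 UMIs, the shares were 5.03%, 10.9% and 1.10% in the gate and 3.11%, 5.86% and 0.711% outside it. The subcritical gate thus held the largest share, with an interval that overlaps the critical one. All 17 Top2a UMIs of the uninjured gate came from 1 cell.

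The proliferation list was also highest in the subcritical gate. Of its genes measured, 12 of 12 were higher in critical than in uninjured gate cells and 16 of 16 in subcritical. Median log2 differences were 1.01 and 1.51, against -0.06 and -0.08 over all genes. A gene was measured where its mean over the 2 libraries was at least 50 CPM. Genes low in uninjured cells could pass that limit through the injured library, which favours this direction, and the 2 medians cover different genes. In the other endothelial cells the medians were 0.43 for critical and 1.10 for subcritical over uninjured. Without gate cells that had over 2 fibroblast or mural UMIs, a setting added after the data were seen, 10 of 12 and 16 of 16 were higher. The gate medians were then 0.80 and 1.26. Stmn1, a microtubule regulator of dividing cells, stood at 217 CPM in critical, 341 CPM in subcritical and 75.8 CPM in uninjured gate cells. Over animals, 0 of 5 tested members were called in any comparison: Stmn1 ran from 0 to 409 CPM among critical, 103 to 607 CPM among subcritical and 22.7 to 156 CPM among uninjured animals, so the groups overlapped.

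**Figure D4:**
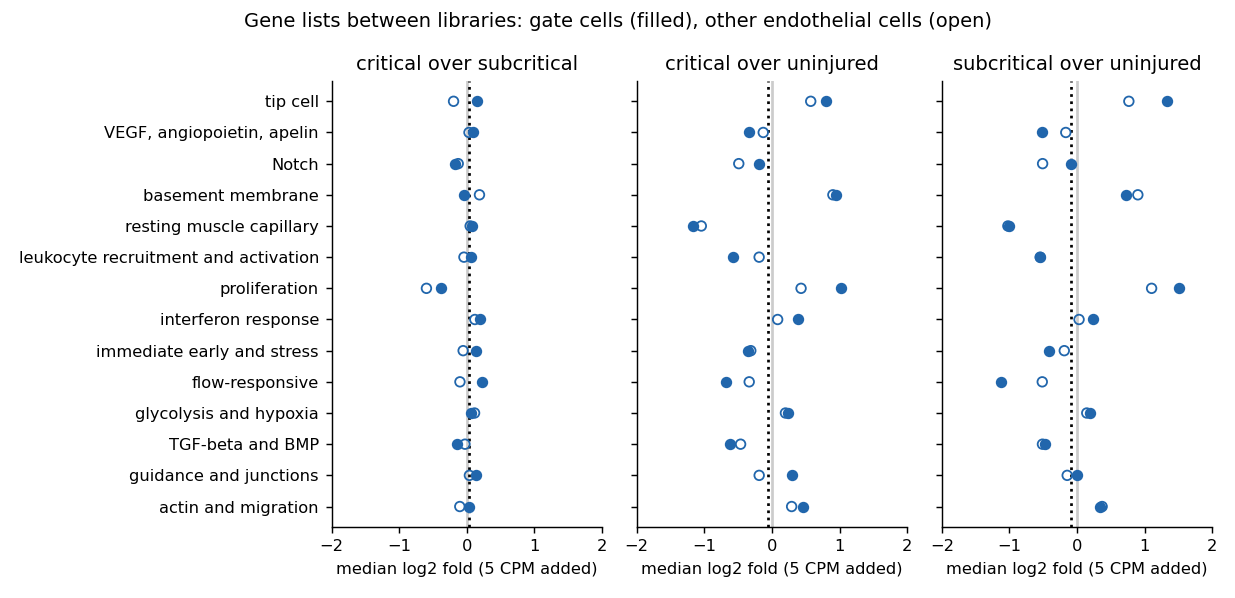
Median log2 fold (after adding 5 CPM) of the measured genes of 14 lists between libraries, in sprouting-gate cells (filled) and other endothelial cells (open); the dotted line is the median of all genes in the gate. The resting muscle capillary list lies near -1 and the basement membrane list near 0.7 to 0.95 over uninjured muscle in both kinds of cell. The tip cell and proliferation lists lie higher in gate cells. Their members could pass the level limit through the injured gate, which favours higher values there, so this contrast is not read as a result. With 1 library a group there is no replicate error.

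Against the other endothelial cells of the same library, few genes stood apart in the gate beyond the genes that chose it. Of 2786 genes, 1 (0.0359%) was at least 2-fold higher and 8 (0.287%) at least 2-fold lower in all 3 libraries, values that describe the gate and were not tested. Hmgn2, a nucleosome-binding protein, was the higher one, at 226, 283 and 136 CPM in critical, subcritical and uninjured gate cells against 98.0, 123 and 61.4 CPM in the other endothelial cells. In the uninjured gate a single cell held 19 of the 35 tagged Hmgn2 UMIs, and with 20 CPM added to each level, or with cells thinned to 1000 UMIs, 0 genes were at least 2-fold higher in all 3 libraries. By library, the shares of genes at least 2-fold higher and lower were 0.323% and 1.4% in the critical, 0.538% and 2.08% in the subcritical and 0.395% and 1.26% in the uninjured library. Odc1, which starts polyamine synthesis, stood at 124, 109 and 144 CPM in the gate against 65.3, 53.4 and 58.6 CPM outside it.

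Fscn1, which bundles actin in filopodia, stood at 784 CPM in critical, 736 CPM in subcritical and 421 CPM in uninjured gate cells, against 297, 318 and 238 CPM in the other endothelial cells. Over animals Fscn1 rose in critical animals (log2 0.85 ± 0.27, edgeR adjusted p 0.0234). Further genes higher in every library were Dapk2, the protocadherin gene Pcdh12, Adh1, the matrix genes Vwa1, Pxdn and Col4a1, the growth genes Stmn1 and Tubb5, Trp53i11, Clec1a, Adgrl2, Dok4, Lgals1, Mtss1, Brd8, Tmsb10 and Tnfaip8l1, with the smallest of the 3 log2 differences at 0.50 to 0.85. Col4a1 is thus higher both inside the gate and after injury.

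The genes lower in the gate included those of arteries and elastic fibres. Fbln5, of elastic fibres, stood at 17.7, 27.3 and 2.62 CPM in critical, subcritical and uninjured gate cells, against 284, 208 and 295 CPM in the other endothelial cells. Gja4, a connexin of arterial endothelium, stood at 42.1, 47.7 and 20.9 CPM against 232, 164 and 153 CPM. Eln, Clu, Col8a1, Fn1, Glul and Bgn were the other six. The rule kept arterial and venous cells out of the gate and in the comparison group, so a lower level of their genes follows from the rule.

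Between whole libraries, many of the genes that differed most in the gate were transcripts of fibroblasts, tendon cells and smooth muscle. Between critical and subcritical gate cells 63 of 3307 genes (1.91%) were at least 2-fold higher and 21 (0.635%) at least 2-fold lower. The 12 highest by the naming rule were Apod, Fmod, Thbs4, Dcn, Serpinf1, Gpx3, Igfbp5, Col1a2, Mgp, Col1a1, Serping1 and Col3a1. Dcn had 229 UMIs in 13 critical gate cells and 7 UMIs in 4 subcritical gate cells. Of the summed Col1a1, Col3a1 and Dcn UMIs, 5 cells held 80.7% in the critical library. Without the cells that had over 2 fibroblast UMIs, a filter that itself counts Dcn, the critical and subcritical gates held 3 and 3 UMIs of Dcn, 1 and 1 of Fmod and 6 and 5 of Thbs4, too few to give a direction.

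Between critical and uninjured gate cells 173 of 3435 genes (5.04%) were at least 2-fold higher and 197 (5.74%) at least 2-fold lower, and between subcritical and uninjured gate cells 140 of 3393 (4.13%) and 273 (8.05%). The lowest named genes of both comparisons included Myh11, Acta2, Tagln, Tpm2 and Myl9, genes of smooth muscle. Acta2 stood at 93.0 CPM in critical, 78.4 CPM in subcritical and 1611 CPM in uninjured gate cells. In the uninjured gate 5 cells held 96.5% of 1412 Acta2, Tagln and Myh11 UMIs. Their part in the other differences was not tested, but calls over animals were also made without such cells: 106 genes for critical and 167 for subcritical over uninjured.

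Other named genes came from many cells. Over the whole libraries, Mest had 326 UMIs in 95 critical and 163 UMIs in 71 subcritical gate cells, against 22 UMIs in 16 uninjured gate cells. Col18a1, the source of endostatin, had 66 UMIs in 39 subcritical gate cells against 18 UMIs in 7 uninjured gate cells, a log2 difference of 2.14 (1.49 to 3.10). Among lower genes, Cdkn1c, a cell cycle inhibitor, stood at 77.5 CPM in critical and 58.0 CPM in subcritical gate cells, against 418 CPM in uninjured gate cells. Fmo2, a flavin monooxygenase, stood at 68.7 and 68.2 CPM against 486 CPM. Bmp6, a ligand made by endothelium, stood at 30.7 CPM in subcritical and 180 CPM in uninjured gate cells. Each of these genes differed in the same direction in the other endothelial cells, where the log2 difference of Col18a1 was 2.82.

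Surface proteins gave a readout that the rule did not use. Each antibody carries a DNA tag that is counted in place of the protein, and the tags of the 2 antibodies called are shown because they are what was counted, in capitals throughout.
CD31: GCTGTAGTATCATGT
CD49f: TTCCGAGGATGATCT
CD31 is the protein of Pecam1, an adhesion molecule of endothelial junctions whose transcript is among those that defined all endothelial cells here. CD49f is integrin alpha 6, a receptor for laminin. Gate cells were compared with the other endothelial cells of the same 9 animals, with the animal as a block in edgeR. Of 118 antibodies with enough counts 2 (1.69%) were called, both higher in gate cells. The comparison group holds the arterial and venous cells that the rule kept out. Over 2 UMIs of Acta2, Tagln and Myh11 were found in 11.9%, 8.55% and 8.44% of critical, subcritical and uninjured other cells, against 5.29%, 3.05% and 5.93% of gate cells. The part of this mix of cells in the 2 calls was not tested.

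CD31 averaged 215 ± 57.3 counts per 10000 antibody counts in gate cells and 166 ± 38.3 in other endothelial cells (SD, n = 9 animals), a log2 difference of 0.38 ± 0.07 (SE, edgeR adjusted p 0.0124). It was higher in the gate in 9 of 9 animals, at 131 to 278 counts in gate cells against 109 to 222 in the others. CD49f averaged 1154 ± 179 counts per 10000 in gate cells and 887 ± 93.5 in other endothelial cells, a log2 difference of 0.40 ± 0.08 (edgeR adjusted p 0.0124), and was also higher in 9 of 9 animals. Differences within animals ran from 0.09 to 0.50 for CD31 and from 0.09 to 0.90 for CD49f on the log2 scale. The IgG2b isotype control, not called, was higher in the gate in 0 of 9 animals (log2 -0.58 ± 0.17, edgeR adjusted p 0.167). The IgG2a control was higher in 2 of 9 (log2 -0.35 ± 0.20, edgeR adjusted p 0.732). The part of background staining in the 2 calls was not tested.

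Over whole libraries, untagged cells included, the differences in counts per 10000 were smaller in critical muscle. CD31 stood at 184 counts per 10000 in gate cells and 177 in other endothelial cells of the critical library, at 253 and 188 in the subcritical library and at 142 and 130 in the uninjured library. CD49f stood at 944 and 887, at 1171 and 862 and at 977 and 876. This scale is a share of all antibody counts. In the critical library CD200 took 1855 counts per 10000 in gate cells and 241 in other cells, and CD64 106 and 313. Counts per cell in the same order were 4.68 and 3.80, 6.66 and 5.18, and 5.78 and 3.82 for CD31. For CD49f they were 24.1 and 19.0, 30.8 and 23.7, and 39.8 and 25.8. The part of the scale in the smaller critical differences was not tested. The difference between injured and uninjured animals in the gate effect had an unadjusted edgeR p of 0.379 for CD31 and 0.244 for CD49f. Without the animal as a block the adjusted p was 0.422 for CD31 and 0.0437 for CD49f, and on plain totals without TMM it was 0.0414 and 0.0919.

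**Figure D5:**
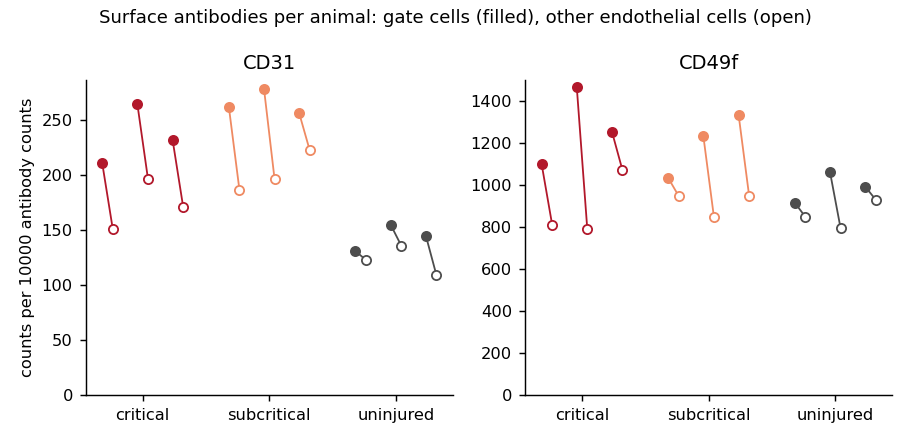
Counts per 10000 antibody counts of CD31 and CD49f in sprouting-gate cells (filled) and other endothelial cells (open) of the same animal, joined by a line, for 3 critical, 3 subcritical and 3 uninjured animals. The gate value is above the other value in all 9 animals for both antibodies.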

How the data were processed

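The deposited matrices hold raw UMI counts per barcode for 32285 genes, 138 panel antibodies (3 of them isotype controls) and 4 hashtags, made with cellranger 6.0.2 per the file headers. Per the submitters' processing notes, bcl2fastq and Cell Ranger were used with GRCm39 (mm39). Barcodes are those the authors deposited. Members and lists were chosen with earlier results of these data known.

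Each hashtag was split into background and signal by a mixture of 2 negative binomials, settled after hashtag counts were seen and before genes were compared. The lowest count that gave a call was 2 to 6, so some calls rest on few counts. Barcodes with several hashtags (6, 5 and 6 critical, subcritical and uninjured gate cells) stayed in library sums and were left out of animal sums. No doublet caller was run.

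Library levels are CPM of summed UMIs (451443, 293324 and 382407 gate UMIs, critical to uninjured), and log2 folds add 5 CPM to genes with a mean of at least 50 CPM. Their intervals, exact binomial on the raw counts, and the limits for a count of 0 (3 counts) cover counting error only. Animal sums (at least 10 gate cells) were tested with edgeR 4.0.16 (R 4.3.3, TMM, filterByExpr, robust quasi-likelihood), with DESeq2 1.42.0 as an alternative. Shares were tested with exact permutation tests over animals. Labels do not number the animals, so hashtag numbers name them and pair none across groups. Simulated counts for critical over uninjured (846 genes) gave back 61% of 2-fold and 88% of 4-fold changes, with 3 false calls of 646. They were drawn once from a negative binomial with the same dispersion for every gene, so they do not give the error rate of the real counts.

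Named genes were the 12 highest and 12 lowest library folds with a mean of at least 100 CPM and an interval clear of 0, the 12 lowest adjusted p values each way, the 20 highest and 10 lowest in the gate over other endothelial cells, and list members. Others named were chosen after their values were seen. Python 3.11.15 ran the rest.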

Additional observations from a re-analysis of the deposited data

Results flagged for a closer look

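The share of endothelial cells in the gate without Col15a1 was 66.7% in subcritical animal 3, far above the other subcritical animals at 33.3% to 36.9%. That animal had 12 tagged endothelial cells. In all, 11 groups of values were checked for a sample that stands apart and 1 was found, and chance flags about 1 in 20.

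The response of Plvap to critical injury was larger in gate cells than in other endothelial cells by 1.86 on the log2 scale (edgeR interaction, adjusted p 0.0243). All 3 critical animals exceeded all 3 uninjured ones in both kinds of cell, and the uninjured gate value is lower in tagged than in untagged cells (73.8 against 833 CPM). Over whole libraries, critical over uninjured was 1.50 in the gate and 1.11 in other cells on the log2 scale, and in untagged cells it was 1050 against 833 CPM in the gate and 1631 against 881 CPM outside it. The call was lost without critical animal 2, uninjured animal 2, uninjured animal 3 or uninjured animal 4 (edgeR adjusted p 0.0993 to 0.480). The response of Cyp26b1 differed by -7.12 (adjusted p 0.0243), with 0 UMIs in the gate cells of all 3 critical animals and 66 of the 73 uninjured gate UMIs in uninjured animal 2, without which it could not be tested; the call was also lost without critical animal 2 or critical animal 4. In untagged gate cells Cyp26b1 stood at 29.1 CPM in critical and 24.0 CPM in uninjured muscle, on 9 and 3 UMIs. What lies behind the difference of either gene was not tested.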

How the results depend on the processing

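Shares per library (critical, subcritical, uninjured) were 21.3%, 16.9% and 3.83% with at least 3 marker UMIs, 36.4%, 33.2% and 21.3% without Col15a1 (at least 1 UMI), and 21.2%, 17.1% and 7.59% without it at 2 UMIs. Thinning gave 4.80% in uninjured muscle. Critical and subcritical shares were 35.2% and 31.9% with at least 4 endothelial UMIs, and 39.5% and 36.7% with at least 1000 UMIs. Over animals, critical minus subcritical was -3.47 points with at least 20 cells, -1.60 thinned and -1.38 without Col15a1 at 1 UMI, and -3.87 to 9.41 leaving out an animal. Critical minus uninjured was 11.9 points without Col15a1 at 1 UMI (adjusted exact permutation p 0.257), 13.2 without it at 2 UMIs (0.129) and 15.7 to 28.9 leaving out an animal. Subcritical minus uninjured was 13.2 and 12.3 in those gates (adjusted exact permutation p 0.257 and 0.129) and 17.5 to 21.4.

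Between libraries, the genes past 2-fold (critical over subcritical, critical over uninjured, subcritical over uninjured) numbered 10, 99 and 104 at 200 CPM or more, and 1439, 2200 and 2507 with no level filter. Critical over subcritical gave 49 with 20 CPM added. edgeR called 2 genes for critical over subcritical with at least 5 cells per animal, 12 with at least 20, 15 without cells rich in fibroblast or mural UMIs (added after the data were seen), and 2 to 10 leaving out an animal. Critical over uninjured gave 58 by DESeq2, 51 with at least 20 cells and 72 to 138 leaving out an animal, with 72 without uninjured animal 2 and 86 without uninjured animal 3. Subcritical over uninjured gave 95 by DESeq2 and 80 to 180 leaving out an animal, with 80 without subcritical animal 4. Of 48 named gene comparisons over animals, 34 were called under every alternative that gave a value. In the gate over other endothelial cells 0 genes passed at 200 CPM or more. The causes were not tested, apart from the fewer genes or animals that a setting leaves.

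Animals could not be paired across groups because each group held its own animals. Within animals, gate and other endothelial cells were paired in the antibody and interaction fits. For antibodies, the fit without the animal as a replicate block called 1, the fit without TMM 1, and leaving out an animal 1 to 2.

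Without cells that had over 2 fibroblast UMIs, and without those with over 2 fibroblast or mural UMIs, the critical over subcritical log2 values turned to -0.21 and -0.16 for Fmod, -0.22 and -0.32 for Thbs4, -0.35 and -0.61 for Dcn, -0.22 and -0.55 for Gpx3, -1.63 and -1.33 for Igfbp5, -0.47 and -0.19 for Mgp, -0.75 and -0.52 for Serping1, and -0.16 and -0.066 for Col3a1. Critical over uninjured turned to -0.50 and -0.032 for Fmod and -0.37 and -0.67 for Dcn, and without the mural-rich cells to 0.97 for Acta2 and 1.39 for Myl9. Subcritical over uninjured then turned to 0.0067 for Tpm2, 0.22 for Tagln and 1.05 for Myl9. The first filter counts Col1a1, Col3a1 and Dcn themselves, and for Dcn, Fmod and Thbs4 at most 6 UMIs remained in each gate, so no direction is read from these values.

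Depth limits genes over animals: 846 of 32285 had enough counts, and most tip cell and Notch genes did not.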
